A study of Mus musculus with 6 samples.

Results

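Macrod2 and 9 other genes that add, read or remove ADP-ribose were followed in the dorsal hippocampus of mice injected with an antisense oligonucleotide (ASO) against the long noncoding RNA Snhg11. The 10 genes, among 55401 in the count files, were Parp1, Parp2, Parp3, Parp9, Parp14, Tnks, Macrod1, Macrod2, Parg and Oard1. They were listed by name, with the contrast of Macrod2 against the interferon-inducible Parp9 and Parp14 in view, and were chosen by their measured differences between the groups of these same samples, which were known when the list was drawn up. Their differences between the groups are therefore given as a description with a standard error and without a test. All 10 had enough reads to enter the fit over 19969 genes.

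The study asked what Snhg11 does in the dentate gyrus, and sequenced ribosome-depleted total RNA of the dorsal hippocampus of 3 mice given Control-ASO and 3 given Snhg11-ASO. All 6 mice were male WT littermates of the Ts65Dn line, aged 4 months, and received 50 μg of ASO per hemisphere into the dorsal dentate gyrus, with tissue taken 3 days after injection. Both ASOs are chemically modified gapmers, Control-ASO with a scrambled order of the same nucleotides and Snhg11-ASO directed at exon 5 of Snhg11, which leads to cleavage of the RNA by RNase H. Each group received a single ASO, so an effect of losing Snhg11 and an effect of that particular strand cannot be told apart, and in bulk tissue fewer cells of a type and less RNA per cell cannot be told apart either.

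ADP-ribosylation is a modification of proteins and nucleic acids made from NAD. Enzymes of the PARP family transfer ADP-ribose from NAD to their targets, either as chains, as Parp1, Parp2 and the tankyrase Tnks do, or as single units, as Parp3 and Parp14 do. Macrodomain proteins such as Macrod1, Macrod2 and Oard1 bind ADP-ribose and remove the last unit from proteins, while Parg shortens the chains. Parp1 and Parp2 are best known from the response to DNA breaks, and Parp9, Parp14 and the ubiquitin ligase Dtx3l, which binds Parp9, from the response to interferon. Macrod2 is one of the longest genes of the genome.

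Promoter sequences of the genes on which the values turn were read first. The windows below run from 250 bases before to 50 bases after a RefSeq start site on GRCm38.p6, 5′ to 3′ on the strand of the gene, and 7 of the 10 genes had such a window (Macrod1, Macrod2, Oard1, Parg, Parp1, Parp2 and Parp3). They were searched on both strands for GAAANNGAA, the core of the interferon-stimulated response element, and for TTCNNNGAA, the core of the gamma-activated site, 2 motifs that can overlap. Macrod2, Parp3 and Dtx3l are shown because the values below turn on them, and Isg15, a classical interferon-stimulated gene, as an example of a window that holds the first motif. Capitals mark matches to GAAANNGAA.
Macrod2 (chr2:140395180-140395479, plus strand): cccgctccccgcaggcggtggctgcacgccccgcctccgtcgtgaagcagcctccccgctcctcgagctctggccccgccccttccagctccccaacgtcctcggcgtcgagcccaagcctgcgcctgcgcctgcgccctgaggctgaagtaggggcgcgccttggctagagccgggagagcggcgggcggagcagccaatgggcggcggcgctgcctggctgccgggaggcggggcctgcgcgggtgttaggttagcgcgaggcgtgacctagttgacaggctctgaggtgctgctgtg
Parp3 (chr9:106476900-106477199, minus strand): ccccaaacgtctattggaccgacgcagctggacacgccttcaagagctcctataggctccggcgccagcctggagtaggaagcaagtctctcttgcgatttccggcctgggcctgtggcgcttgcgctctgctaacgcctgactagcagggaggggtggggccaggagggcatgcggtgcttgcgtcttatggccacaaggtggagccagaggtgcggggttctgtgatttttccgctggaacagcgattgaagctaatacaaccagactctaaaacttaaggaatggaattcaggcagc
Dtx3l (chr16:35938978-35939277, minus strand): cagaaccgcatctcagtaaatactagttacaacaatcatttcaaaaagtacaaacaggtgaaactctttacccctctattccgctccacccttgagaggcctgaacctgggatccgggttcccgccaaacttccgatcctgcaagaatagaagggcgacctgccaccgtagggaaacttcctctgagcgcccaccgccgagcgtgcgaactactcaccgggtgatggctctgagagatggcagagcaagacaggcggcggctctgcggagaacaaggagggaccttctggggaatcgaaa
Isg15 (chr4:156200769-156201068, minus strand): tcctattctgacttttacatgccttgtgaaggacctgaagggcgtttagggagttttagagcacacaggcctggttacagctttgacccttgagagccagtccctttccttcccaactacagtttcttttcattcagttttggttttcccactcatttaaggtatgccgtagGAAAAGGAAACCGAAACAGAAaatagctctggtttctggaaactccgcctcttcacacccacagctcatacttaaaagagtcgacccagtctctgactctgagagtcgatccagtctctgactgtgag

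The window of Isg15 held 3 overlapping matches to GAAANNGAA, and 23 of 40 windows of the interferon-stimulated genes listed further below held at least 1 (57.5%), against 2812 of 32851 windows over all genes (8.56%). TTCNNNGAA was found in 8 of those 40 windows (20%) and in 8.30% of all windows. Neither motif was in any window of the 7 genes or of Dtx3l. Parp9, Parp14 and Tnks had no window, so the search says nothing of the interferon-inducible pair. GAAANNGAA was in 5 of 20 windows of the other ADP-ribosyltransferases listed further below (25%). It was in 3 of 15 windows of the readers and partners of ADP-ribose (20%). For TTCNNNGAA these shares were 10% and 6.67%. The windows say nothing of sites outside these 300 bases. The Macrod2 window held 33 CpG dinucleotides at a GC content of 73.7%, where the median over all windows was 7 CpG. This was shared with other genes of the list, with 31 and 33 CpG in the windows of Parg, 28 and 31 in those of Macrod1, 25 for Parp2, 20 for Parp1, 16 for Parp3 and 23 and 13 for Oard1, while Dtx3l had 17 and Isg15 had 6.

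The targeted RNA was lower in every Snhg11-ASO sample. Snhg11 had 551, 436 and 209 CPM (counts scaled to library size with TMM factors) after Control-ASO and 139, 65.4 and 69.4 CPM after Snhg11-ASO (log2 fold change -2.13, SE 0.43, edgeR adjusted p = 0.395 and DESeq2 adjusted p = 6.2e-05). Library totals on genes were 28951250 to 34293344 counts in the Control-ASO samples and 38556524 to 43997537 in the Snhg11-ASO samples. Over all 19969 genes the quasi-likelihood test of edgeR (Benjamini-Hochberg adjusted p under 0.05) called 0 genes (0.0%), while 1619 genes had an unadjusted p under 0.05 (8.11%, of which 734 higher, 3.68% of all, and 885 lower, 4.43%) and DESeq2 called 258 (1.29%). All 6 libraries had at least 61.3 CPM of the Y-linked Ddx3y and at most 0.182 CPM of Xist, here per plain library total. Markers of hippocampal neurons were present in every sample (16 of 16 tested, summed level 3875 to 4692 CPM), and those of the choroid plexus, a tissue next to the hippocampus, ranged from 43.0 to 2017 CPM after Control-ASO and from 76.8 to 1364 CPM after Snhg11-ASO.

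Macrod2 (ENSMUSG00000068205) lies on the plus strand of chromosome 2 from 140395309 to 142392966 of GRCm38, a span of 1998 kb, on the same chromosome as Snhg11. It had 54.6, 47.4 and 49.0 CPM after Control-ASO and 28.6, 30.5 and 26.2 CPM after Snhg11-ASO. The groups did not overlap, and the lowest Control-ASO sample was well above the highest Snhg11-ASO sample. The mean level in the Snhg11-ASO samples was 56.4% of that in the Control-ASO samples (log2 fold change -0.83, SE 0.11, 95% interval -1.08 to -0.57), the lowest log2 fold change of the 10 genes. Its counts came from 1 strand, with 2 to 4 counts per sample on the opposite strand against 1089 to 1649 on its own.

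Macrod1 (chromosome 19, 7056810 to 7198057, plus strand), the mitochondrial relative of Macrod2, was a low gene. It had 4.52, 5.17 and 4.84 CPM after Control-ASO and 3.04, 4.38 and 3.69 CPM after Snhg11-ASO. All Snhg11-ASO samples were below all Control-ASO samples, by a narrow gap (log2 fold change -0.39, SE 0.20, 95% interval -0.87 to 0.10). On the opposite strand, where Flrt1 and an antisense gene are annotated within its span, it had 16, 20 and 13 counts after Control-ASO. After Snhg11-ASO it had 53, 29 and 21 there, at most 31.4% of the counts on both strands, in Snhg11-ASO replicate 1. Both of those annotated genes were lower after Snhg11-ASO, and the source of these counts was not tested. With the counts of both strands, the log2 fold change of Macrod1 was -0.23.

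Oard1 (chromosome 17, 48410014 to 48417266, plus strand), the third macrodomain hydrolase of the list, overlapped between the groups. It had 6.49, 8.14 and 7.96 CPM after Control-ASO and 5.25, 7.90 and 8.47 CPM after Snhg11-ASO (log2 fold change -0.06, SE 0.22). Snhg11-ASO replicate 1 was the lowest of the 6, and the fold change turned to 0.12 without it. Parg (chromosome 14, 32201949 to 32297550, plus strand), which degrades the chains, had 59.5, 62.3 and 61.3 CPM after Control-ASO and 67.3, 68.6 and 63.3 CPM after Snhg11-ASO. Its Snhg11-ASO samples were all above the Control-ASO samples, but the difference was small (log2 fold change 0.12, SE 0.08, 95% interval -0.07 to 0.31).

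**Figure D1:**
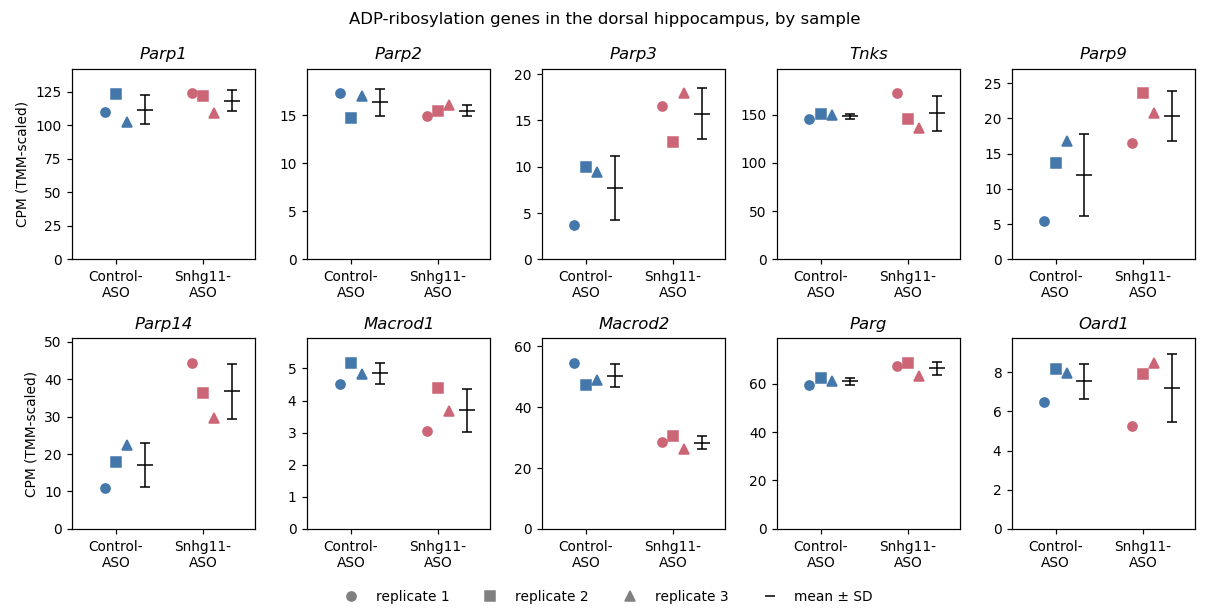
Level of each of the 10 genes in every sample, in TMM-scaled CPM on axes that start at 0, with 1 point per mouse (circle, square and triangle for replicates 1, 2 and 3) and the group mean ± SD (n = 3) beside the points. Macrod2 is separated between the groups by the widest gap on the low side, Parp14 and Parp3 are separated on the high side, and Parp1, Parp2, Tnks and Oard1 overlap.

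The interferon-inducible pair had its higher levels where Macrod2 had its lower ones. Parp14 (chromosome 16, 35832874 to 35871544, minus strand), a macrodomain protein that transfers single ADP-ribose units, had 10.9, 17.9 and 22.4 CPM after Control-ASO and 44.4, 36.3 and 29.6 CPM after Snhg11-ASO. The groups did not overlap (log2 fold change 1.10, SE 0.28, 95% interval 0.45 to 1.76). Parp9 (chromosome 16, 35938470 to 35972605, plus strand), the partner of Dtx3l, had 5.51, 13.6 and 16.8 CPM after Control-ASO and 16.5, 23.5 and 20.8 CPM after Snhg11-ASO. Its groups overlapped, since Control-ASO replicate 3 was slightly above Snhg11-ASO replicate 1 (log2 fold change 0.76, SE 0.38, 95% interval -0.14 to 1.66). With the replicate number as a block, the log2 fold change was 0.88 (SE 0.26) for Parp9 and 1.14 (SE 0.31) for Parp14. The labels do not give such pairs. Control-ASO replicate 1 was the lowest sample for both genes, and leaving it out gave a log2 fold change of 0.85 for Parp14 and 0.41 for Parp9.

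Parp3 (chromosome 9, 106470322 to 106476949, minus strand), which acts at DNA breaks, had 3.71, 10.02 and 9.44 CPM after Control-ASO and 16.6, 12.7 and 17.9 CPM after Snhg11-ASO. The groups did not overlap, and Control-ASO replicate 1 was again the lowest sample (log2 fold change 1.03, SE 0.36, and 0.69 without that sample). Parp3 was not part of the contrast with Macrod2.

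Parp1, Parp2 and Tnks, which make ADP-ribose chains, overlapped between the groups. Parp1 (chromosome 1, 180568924 to 180601254, plus strand), the main source of ADP-ribose chains after DNA damage, had 110, 123 and 102 CPM after Control-ASO and 124, 121 and 109 CPM after Snhg11-ASO (log2 fold change 0.08, SE 0.10, 95% interval -0.16 to 0.32). Parp2 (chromosome 14, 50807841 to 50821301, plus strand), its closest relative, had 17.3, 14.7 and 17.0 CPM against 14.9, 15.5 and 16.1 CPM (log2 fold change -0.08, SE 0.12). Tnks (chromosome 8, 34826460 to 34965690, minus strand), which modifies regulators of Wnt signalling and telomeres, had 146, 150 and 150 CPM against 172, 145 and 137 CPM (log2 fold change 0.03, SE 0.11). For Tnks the Snhg11-ASO samples lay on both sides of the Control-ASO samples, with a log2 fold change of -0.07 without Snhg11-ASO replicate 1.

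Over the 10 genes, the groups did not overlap for 5, of which 3 were higher (Parp14, Parp3 and Parg) and 2 lower (Macrod2 and Macrod1). Among all genes tested the groups did not overlap for 15.4%, with 7.73% higher and 7.7% lower in the Snhg11-ASO samples. The median log2 fold change of the 10 was 0.05, with 6 positive, and that of all genes was 0.01. Nothing is read from these shares, since the genes were picked with this contrast known.

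The difference in level between Macrod2 and the interferon-inducible pair was set out within each sample, as log2 CPM of Macrod2 minus log2 CPM of the other gene. Against Parp9 the difference was 3.30, 1.80 and 1.54 after Control-ASO and 0.79, 0.37 and 0.33 after Snhg11-ASO, so Macrod2 had more counts than Parp9 in all 6. The group means were 2.21 ± 0.95 and 0.50 ± 0.25 (SD, n = 3), apart by -1.72, and by -1.17 without Control-ASO replicate 1. Against Parp14 the difference was 2.32, 1.40 and 1.12 after Control-ASO and -0.63, -0.25 and -0.18 after Snhg11-ASO, so that Parp14 had more counts than Macrod2 in each Snhg11-ASO sample and fewer in each Control-ASO sample. The group means were 1.61 ± 0.62 and -0.36 ± 0.24 (SD, n = 3), apart by -1.97, and by -1.62 without Control-ASO replicate 1. These differences are of counts and do not take the lengths of the genes into account.

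**Figure D2:**
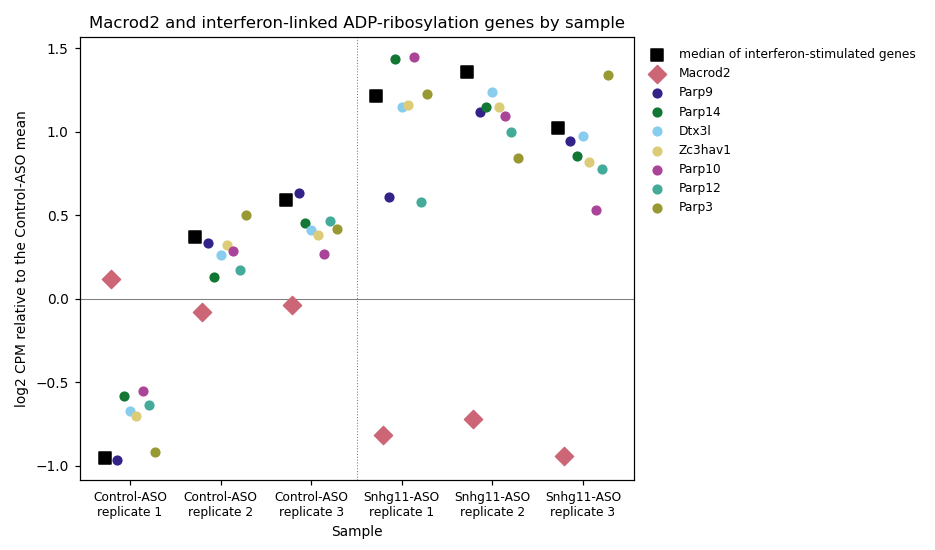
Log2 CPM of Macrod2 (diamonds), of 7 ADP-ribosylation genes (circles) and the median of 45 interferon-stimulated genes (squares) in each of the 6 samples, each relative to its own Control-ASO mean. Control-ASO replicate 1 is below 0 for every series but Macrod2, and Macrod2 is below 0 by 0.72 to 0.94 in the Snhg11-ASO samples while the other series are above 0. The 7 genes (Parp9, Parp14, Dtx3l, Zc3hav1, Parp10, Parp12 and Parp3) are all from the high side, so their place above 0 comes with the choice. ADP-ribosylation genes with negative log2 fold changes, such as Parp6 and Macrod1, are not drawn.

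Levels of different genes were compared per length, as TPM (transcript abundance scaled to one sum in every library) over the merged exons of each gene in the Control-ASO samples. Parp1 was first with 60.03 ± 3.26 TPM, above Parg with 30.2 ± 1.38 and Tnks with 28.5 ± 1.35 TPM, which overlapped each other. Macrod2 (13.9 ± 1.21 TPM), Oard1 (13.8 ± 1.79), Parp2 (12.9 ± 1.52) and Macrod1 (11.2 ± 0.723) followed, each overlapping the next in order. Parp9 (7.06 ± 3.59 TPM), Parp3 (5.96 ± 2.71) and Parp14 (5.27 ± 1.94, all SD, n = 3) were the lowest, overlapped each other in that order and had the largest SD relative to their mean. By merged exons, the samples did not overlap between Parp1 and Parg, between Tnks and Macrod2, or between Macrod1 and Parp9. In the Snhg11-ASO samples Macrod2 had 8.02, 8.46 and 6.82 TPM, below the 13.8, 11.2 and 8.55 TPM of Parp14 in the same mice. The place of Macrod2 depends on the length used, since its 14 annotated transcripts merge to 10308 bases of exon while the longest has 4883, and with the latter it had 25.9 TPM after Control-ASO. The order of Macrod2 and Parp14 after Snhg11-ASO turns with it, since their means were 14.4 and 12.3 TPM by the longest transcript.

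**Figure D3:**
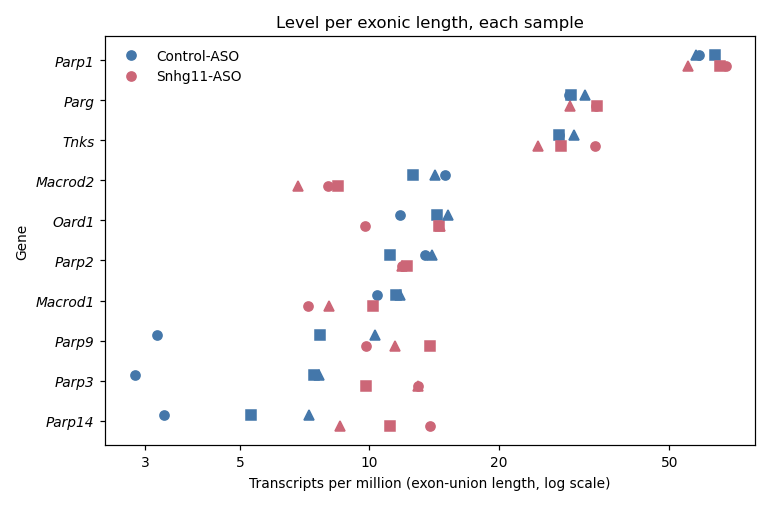
Level per length of the 10 genes in every sample, in TPM over merged exons on a log axis, ordered by the Control-ASO mean, with Control-ASO in blue, Snhg11-ASO in red and circles, squares and triangles for replicates 1, 2 and 3. Parp1 stands highest, and Macrod2 lies near 14 TPM in the Control-ASO samples and near 8 TPM in the Snhg11-ASO samples.

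The lower level of Macrod2 was shared by other genes of its size. Of 57 tested genes with a span of at least 1000 kb, 54 had a negative log2 fold change (94.7%, against 48.3% of all genes tested). The median of the 57 was -0.48. In 42 of them all Snhg11-ASO samples were below all Control-ASO samples (73.7%, against 7.7% of all genes tested). Macrod2 was the seventh longest of all tested genes by annotated span, and its value was the 12th lowest of the 57 (percentile 21.1). Its neighbours in span had values on either side of it, -0.88 (SE 0.16) for Lsamp, a neuronal adhesion molecule, -0.67 (SE 0.16) for the receptor Lrp1b and -0.37 (SE 0.11) for Dlg2, a postsynaptic scaffold. These 3 were chosen after their values were seen. Among the 223 tested genes of at least 500 kb the median was -0.37 and 23 were at or below Macrod2 (percentile 10.3), while the 17492 genes under 100 kb had a median of 0.02.

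With the trend of each sample with genomic span removed, the log2 fold change of Macrod2 was -0.35 (SE 0.09), against -0.83 without this correction. It was then the 15th lowest of the 57 genes of at least 1000 kb (percentile 26.3), whose median was -0.09, and its percentile among all genes went from 2.35 to 11.2. The corrected values of the other 9 genes stayed near the uncorrected ones, with 1.08 for Parp14, 0.74 for Parp9, 1.02 for Parp3 and -0.33 for Macrod1.

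**Figure D4:**
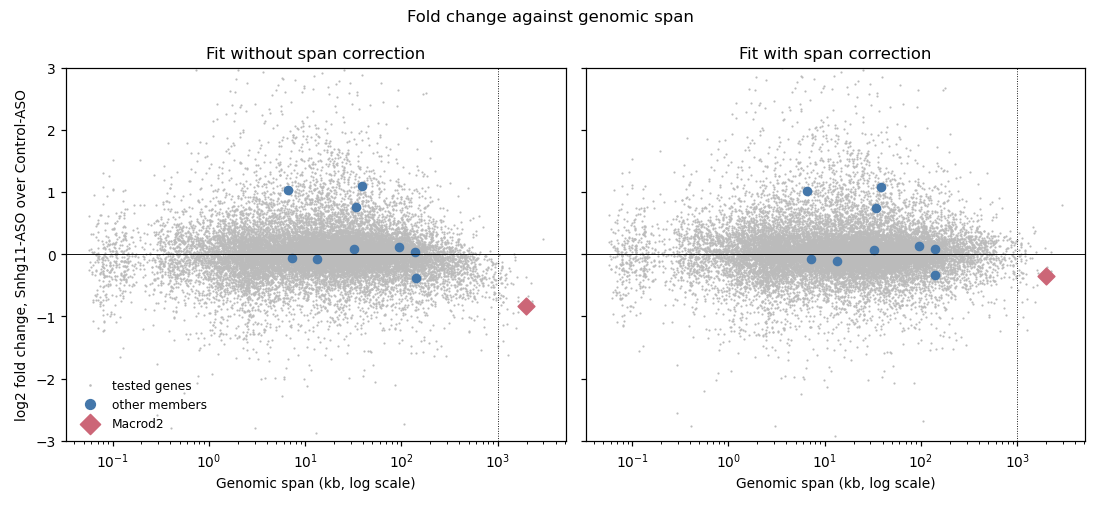
Log2 fold change of Snhg11-ASO over Control-ASO against genomic span (kb, log axis) for all tested genes within ±3 (grey), the 9 other ADP-ribosylation genes (blue) and Macrod2 (red diamond), without (left) and with (right) the correction for span, and a dotted line at 1000 kb. The cloud bends below 0 beyond 500 kb on the left, where Macrod2 lies at -0.83, and Macrod2 lies at -0.35 on the right.

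Other genes are annotated inside the span of Macrod2 and Macrod1, and their reads were counted apart. Flrt3, an adhesion molecule on the opposite strand within Macrod2 (chromosome 2, 140650914 to 140671469), had 42.8, 37.8 and 48.2 CPM after Control-ASO and 35.7, 45.0 and 38.4 CPM after Snhg11-ASO. Its groups overlapped (log2 fold change -0.11, SE 0.13, edgeR adjusted p = 0.846). Zcchc9-ps, a processed pseudogene on the strand of Macrod2 (141127280 to 141128065), had 2.28, 2.17 and 2.64 CPM against 1.34, 1.79 and 1.44 CPM (log2 fold change -0.63, SE 0.23, edgeR adjusted p = 0.574). It is a copy of another gene, so its reads are uncertain. As it lies on the strand of Macrod2, reads of unspliced Macrod2 RNA could also be counted on it, which was not tested. The antisense genes Macrod2os1 and Macrod2os2 had 0 counts in all 6 samples, and the remaining annotated genes within Macrod2 had at most 22 counts in a sample.

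Within Macrod1, both tested genes lay on the opposite strand. Flrt1, a relative of Flrt3 (chromosome 19, 7092001 to 7105729), had 18.9, 15.5 and 18.7 CPM after Control-ASO and 12.5, 10.98 and 11.8 CPM after Snhg11-ASO (log2 fold change -0.59, SE 0.13, edgeR adjusted p = 0.442 and DESeq2 adjusted p = 0.0150). All Snhg11-ASO samples were below all Control-ASO samples, as for Macrod1 itself. The antisense gene AC109619.1 (7087469 to 7088421) had 3.03, 2.29 and 2.70 CPM against 1.97, 1.27 and 1.69 CPM (log2 fold change -0.70, SE 0.26, edgeR adjusted p = 0.571).

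At the locus of Parp9 and Parp14 on chromosome 16, Dtx3l (35926511 to 35939151, minus strand) overlaps the start of Parp9 on the other strand. Dtx3l had 9.08, 17.4 and 19.3 CPM after Control-ASO and 32.2, 34.2 and 28.6 CPM after Snhg11-ASO. The groups did not overlap (log2 fold change 1.05, SE 0.27, edgeR adjusted p = 0.483 and DESeq2 adjusted p = 0.0252), and Control-ASO replicate 1 was the lowest sample, as for its neighbours. The flanking Kpna1, an importin, had a log2 fold change of 0.14 (SE 0.11) and Hspbap1 one of 0.52 (SE 0.34), and both overlapped between the groups. Gm49730 (0.62, SE 0.41) and Gm15564 (-1.51, SE 0.43), also within 100 kb, stayed below 0.7 CPM in every sample.

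The 45 listed interferon-stimulated genes, none of which is an ADP-ribosylation gene, had positive log2 fold changes throughout, with a median of 1.07 against 0.01 over all genes. At an unadjusted p under 0.05, 23 of the 45 were higher, against 3.68% of all genes. DESeq2 called 9, against 1.29% of all genes, and edgeR 0. The list was chosen with earlier results of these data known. Ifi35 had a log2 fold change of 1.19 (SE 0.24, edgeR adjusted p = 0.377 and DESeq2 adjusted p = 0.0012). The antiviral factor Samd9l had one of 1.51 (SE 0.35, edgeR adjusted p = 0.445 and DESeq2 adjusted p = 0.0039). The guanylate-binding protein Gbp2 had one of 1.73 (SE 0.41, edgeR adjusted p = 0.460 and DESeq2 adjusted p = 0.0028). The summed level of the list was 274, 691 and 833 CPM after Control-ASO and 1219, 1437 and 1100 CPM after Snhg11-ASO. Control-ASO replicate 1 was the lowest sample, and without it 44 of 45 genes had positive values and the median was 0.71. Without Snhg11-ASO replicate 2 the number at an unadjusted p under 0.05 was 13, and with the replicate number as a block it was 39.

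Of 18 other ADP-ribosyltransferases, 17 were matched and 13 tested, since Art1, Art2b, Art4 and Art5 had too few reads. Their median log2 fold change was 0.17, with 10 positive (0.10, with 9 positive, without Snhg11-ASO replicate 3), and edgeR and DESeq2 called 0. At an unadjusted p under 0.05, 3 were higher and 1 lower, against 3.68% and 4.43% of all genes. Zc3hav1, the zinc-finger antiviral protein, had 10.4, 21.2 and 22.1 CPM after Control-ASO and 37.9, 37.5 and 29.9 CPM after Snhg11-ASO (log2 fold change 0.97, SE 0.28, edgeR adjusted p = 0.507). Parp10 had 3.26, 5.86 and 5.79 CPM against 13.2, 10.3 and 6.96 CPM (log2 fold change 1.03, SE 0.32, edgeR adjusted p = 0.530). The groups did not overlap for either gene, and Control-ASO replicate 1 was the lowest sample of both.

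Parp6, which transfers single units and is known from dendrite growth, was the lower one, with 84.8, 92.5 and 84.9 CPM after Control-ASO and 64.0, 74.3 and 68.3 CPM after Snhg11-ASO (log2 fold change -0.34, SE 0.09, edgeR adjusted p = 0.492). Parp12, the remaining gene at an unadjusted p under 0.05 on the high side, had a log2 fold change of 0.72 (SE 0.27, edgeR adjusted p = 0.582). Tiparp and Parp4 were high in 1 mouse. Tiparp, a target of the aryl hydrocarbon receptor, had 86.6 CPM in Snhg11-ASO replicate 1 and 21.6 to 30.0 CPM in the other 5 samples, and Parp4, the vault PARP, had 14.2 CPM in that sample and 6.12 to 7.15 CPM in the others. Parp12, Tiparp and Parp4 were chosen after their values were seen.

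Among 15 readers and partners of ADP-ribose, all tested, the median log2 fold change was 0.00 with 8 positive. Dtx3l was the single gene that DESeq2 called, against 1.29% of all genes. Rnf146, the ubiquitin ligase that reads the chains made by tankyrase, had a log2 fold change of 0.14 (SE 0.11), and H2afy, which encodes the macrodomain histone macroH2A1, one of -0.13 (SE 0.09). Of 9 other ADP-ribose hydrolases, 8 were tested (Adprhl1 was too low), none reached an unadjusted p under 0.05 and the median was 0.03 (-0.03 without Control-ASO replicate 1). Nudt9, which cleaves free ADP-ribose, had a log2 fold change of 0.05 (SE 0.11), and Adprh, which removes ADP-ribose from arginine, one of 0.02 (SE 0.10).

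**Figure D5:**
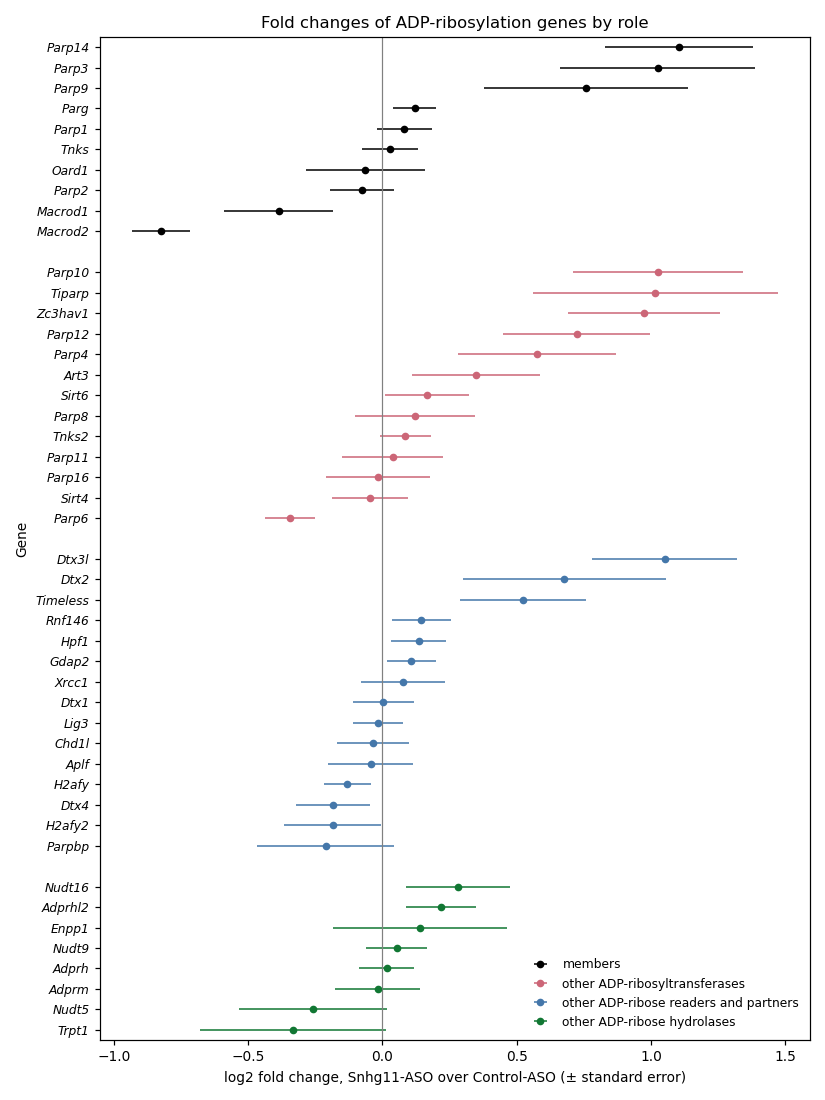
Log2 fold change of Snhg11-ASO over Control-ASO ± SE (points and bars, n = 3 per group) for the 10 genes (black) and 36 other tested transferases (red), readers and partners (blue) and hydrolases (green). Macrod2 is the lowest of all 46 genes at -0.83, and Parp14, Dtx3l, Parp10, Parp3, Tiparp and Zc3hav1 are the highest, near 1.

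NAD, the substrate of all these enzymes, is made and broken down by 21 listed genes, of which 16 were tested, with a median log2 fold change of -0.08 and 7 positive (0.07, with 9 positive, without Snhg11-ASO replicate 1). Nampt, the rate-limiting enzyme of NAD salvage, had 65.6, 73.1 and 78.0 CPM after Control-ASO and 104.6, 90.3 and 82.2 CPM after Snhg11-ASO (log2 fold change 0.36, SE 0.12, edgeR adjusted p = 0.551). The NAD hydrolases Cd38 (0.53, SE 0.22, edgeR adjusted p = 0.599) and Bst1 (2.97, SE 1.13, edgeR adjusted p = 0.583) also reached an unadjusted p under 0.05, the latter on 6.24 CPM in Snhg11-ASO replicate 1 against 0.21 to 0.60 CPM elsewhere. Nmnat2, the neuronal NAD synthase, was the only one of the 16 lower at that level (-0.22, SE 0.09, chosen after its value was seen). With the correction for genomic span its log2 fold change was -0.14. The number of listed genes lower at that level was 0 with that correction, with the replicate block, and without any single Control-ASO sample. Without Control-ASO replicate 1 the number higher was also 0.

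The genes whose log2 CPM followed that of Macrod2 most closely over the 6 samples were Gm37211 (Pearson r = 0.994), Apba1 (0.993), Kcnma1 (0.991), Cabp1 (0.990) and Gm37880 (0.990). The 6 points fall into 2 groups that did not overlap for any of these 5 genes, as for Macrod2, so the points are not a continuous series. Macrod2 was chosen with its group difference known, so a group difference in genes picked for following it was fixed by that choice. Their fold changes are therefore given as a description, without a test. Kcnma1, a potassium channel gene of 725 kb, had 367, 344 and 356 CPM after Control-ASO and 183, 188 and 146 CPM after Snhg11-ASO (log2 fold change -1.04, SE 0.12). Apba1, a presynaptic adaptor gene of 191 kb, had a log2 fold change of -0.86 (SE 0.09), while Cabp1 had one of -0.34 on a span of 25.7 kb.

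Markers of other cell types were set beside these genes. The summed level of 18 microglia markers was 441, 923 and 740 CPM after Control-ASO and 376, 852 and 1034 CPM after Snhg11-ASO, with a median log2 fold change of 0.01, so that both replicates 1 were low, as was Control-ASO replicate 1 for Parp9, Parp14 and Parp3. Snhg11-ASO replicate 1, in contrast, had the highest Parp14 of all 6 samples. Of 19 blood leukocyte markers 6 were tested, 5 of them positive and 1 negative (-0.37), with a median log2 fold change of 1.71. Without Snhg11-ASO replicate 1 the median was 0.03, with 4 of 7 positive. The neutrophil genes S100a8 and S100a9 were at 22.3 and 16.0 CPM in Snhg11-ASO replicate 1 and at no more than 1.09 CPM elsewhere (chosen after their values were seen). The monocyte marker Ly6c2 had 0.31 to 0.56 CPM after Control-ASO and 1.603 to 2.88 CPM after Snhg11-ASO (log2 fold change 2.14, SE 0.37, edgeR adjusted p = 0.308 and DESeq2 adjusted p = 0.00089). The median log2 fold change was 0.00 for 12 astrocyte markers, 0.22 for 16 oligodendrocyte markers, -1.07 for 12 choroid plexus markers and -0.12 for 16 hippocampal neuron markers. One library moved these medians. Without Snhg11-ASO replicate 1 they were 0.40 for microglia, 0.29 for astrocytes, 0.59 for oligodendrocytes, -2.86 for the choroid plexus and -0.03 for neurons. The other end of the range was -0.24 for microglia and -0.20 for astrocytes without Snhg11-ASO replicate 3, -0.10 for oligodendrocytes and -0.18 for neurons without Snhg11-ASO replicate 2, and -0.43 for the choroid plexus without Control-ASO replicate 1. The part of these cell types in the levels of the ADP-ribosylation genes was not tested.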

How the data were processed

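Bulk RNA-seq libraries (stranded total RNA, ribosome-depleted, paired-end) came from the dorsal hippocampus of 3 Control-ASO and 3 Snhg11-ASO mice. The authors aligned reads with STAR (2.5.2a, GRCm38/mm10) and deposited raw read counts per gene, not normalized and not pooled. The methods name Rsubread, but the deposited counts have the format of STAR. The annotation release is not given in the sources used here. The study set aside 1 Snhg11-ASO sample it did not name, and all 6 were used here.

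Reverse-strand counts were taken (96.2% to 96.8% of counts on genes). Summary lines naming no gene (43.5% to 51.4% of read pairs) were left out. STAR leaves out pairs that map to several places. Symbols and positions came from GENCODE M21 (55141 of 55401 genes matched), promoter windows from RefSeq (GRCm38.p6).

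Genes were filtered with filterByExpr (minimum count 10), scaled with TMM and fitted with the quasi-likelihood test over 19969 genes in edgeR 4.0.16 under R 4.3.3, and p-values were adjusted over all of them (Benjamini-Hochberg, 0.05). SE was taken as |log2 fold change|/√F. Log2 CPM used a prior count of 2. The common biological coefficient of variation was 0.266. The fit was tested on simulated counts. The 10 genes, the 11 lists of other genes, the naming rule and the alternatives were chosen with earlier results of these data known. Named were the targeted gene, the 10 genes, tested genes nested in Macrod2 and Macrod1 at 1 CPM or more, genes within 100 kb of the Parp9 and Parp14 locus, the 5 genes most correlated with Macrod2, and in each list the genes called or else up to 3 with the smallest unadjusted p under 0.05 (or the 2 of highest level).

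Alternatives were DESeq2 1.42.0, its size factors in edgeR, no filter, counts of both strands, the replicate number as a block, offsets that remove the loess trend with genomic span from every library (alone and with the block), each sample left out, and the longest transcript as length. The residuals of equally numbered samples around their group means had correlations of 0.297 (replicate 1), 0.179 (replicate 2) and 0.103 (replicate 3). As each exceeded 0.1, the replicate number was added as a block in alternatives only, and the main fit had no block. Correlations between unequally numbered samples were not computed, so these values cannot show that the samples were paired. The block comes from the values, not from the labels.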

Additional observations from a re-analysis of the deposited data

How the results depend on the processing

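The log2 fold changes of Parp1, Parp2, Parp3, Parp9, Parp14, Macrod1, Macrod2 and Parg kept their direction in all 13 alternatives, and those of Tnks and Oard1 in 12. Macrod2 moved to -0.35 with the correction for genomic span and to -0.35 with that correction and the replicate block together. With samples left out in turn, Macrod2 ranged from -0.88 to -0.77, Parp14 from 0.85 to 1.34, Parp9 from 0.41 to 1.08 and Parp3 from 0.69 to 1.26. The replicate block alone gave 0.88 for Parp9 (SE 0.26, against 0.38 without it) and 1.14 for Parp14 (SE 0.31, against 0.28). It gave -0.83 for Macrod2 and changed no call at an adjusted p under 0.05. Calls over all genes were 258 with DESeq2, 0 to 2 with samples left out (2 without Snhg11-ASO replicate 1) and 0 with the other edgeR settings. DESeq2 called 1 of 15 readers and partners, 9 of 45 interferon-stimulated genes and 1 of 6 leukocyte markers, against 1.29% of all genes. Calls among the 10 genes are not counted, since these were chosen with this contrast known. Without Control-ASO replicate 1, 366 genes were higher and 534 lower at an unadjusted p under 0.05, against 734 and 885 with all samples, and without Control-ASO replicate 3, 391 and 567. With the longest transcript as length, the Control-ASO level was 72.2 TPM for Parp1, 34.7 for Parg, 40.7 for Tnks, 25.9 for Macrod2, 18.9 for Parp2 and 9.90 for Macrod1, which puts Tnks above Parg.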
